A study of Strongylocentrotus purpuratus with 2 samples.

Results

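The narrowest solitary Alx1 peaks were examined in the embryo of the purple sea urchin, Strongylocentrotus purpuratus. A peak is a stretch of DNA recovered more often with an Alx1 antibody than with a control antibody, and its summit is the base with the highest recovery. Peaks were chosen from the authors' deposited list by a width of exactly 190 bp and by having no other summit within 5 kb on the same scaffold. The rule found 445 peaks among 2906 in the list. They were set against the 2006 solitary peaks wider than 190 bp and, where it helped, against the 52 peaks of 190 bp with a summit within 5 kb.

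The series holds 2 libraries, 1 Alx1 ChIP library and 1 mock library made with normal rabbit IgG. Each was pooled from 3 cultures of embryos 24 hours after fertilisation, when they are mesenchyme blastulae, and sequenced as single reads of 50 nt. Fragments in the mock library show how readily a site is recovered without Alx1-specific binding. Because each antibody had 1 library, no value below has a spread between replicates.

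Alx1 is a homeodomain transcription factor of the paired class, and such proteins bind AT-rich sites built around a TAAT core, often as pairs of proteins on a palindrome. In the sea urchin embryo Alx1 acts in the skeletogenic lineage, the large micromere descendants that become primary mesenchyme cells, enter the blastocoel and secrete the calcite skeleton of the larva. These cells are a minority of the embryo, so strong binding in few cells and weak binding in many cannot be told apart in chromatin of mixed cells. A homeodomain site is far shorter than a ChIP fragment, and the width of a peak reflects the fragments recovered around a site and not the length of the site itself. The genome build of the files was not at hand, so the sequence and the genes at these positions were not analysed here.

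A width of 190 bp stood apart in the list. It was the width of 497 peaks, whereas the next widths, 191, 192 and 193 bp, had 41, 46 and 42 peaks. No peak was narrower. The same number is the fragment length that the mock values of the list imply, since background levels set over 1 kb or 10 kb came in whole steps of 190 bp fragments. Of the 497 narrowest peaks 445 were solitary (89.5%, Wilson 95% interval 86.5% to 91.9%). Solitary peaks included 445 narrowest peaks among 2451 (18.2%, interval 16.7% to 19.7%), and peaks with a neighbour within 5 kb included 52 among 455 (11.4%, interval 8.82% to 14.7%). Peaks close to a limit of the rule were as follows. The member with the closest neighbour lay on Scaffold113 at 192545 to 192734, 5.19 kb from the next summit. The narrowest peak that failed by the least distance lay on Scaffold116 at 687867 to 688056, 3.94 kb from the next summit, and had a fold of 2.0 on 24 ChIP fragments. The 36 solitary peaks of 191 bp fell just outside the width.

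The narrowest solitary peaks were modest sites with few fragments in both libraries. Fragment numbers were solved for each summit from the deposited fold and −log10 p, both of which the peak caller derives from them. Summits of the 445 members carried a median of 12 Alx1 ChIP fragments (quartiles 10 and 15, extremes 7 and 80). Wider solitary peaks carried a median of 19 (quartiles 13 and 29, extremes 8 and 169). Median mock backgrounds were 2.28 fragments in members (quartiles 1.995 and 3.42) and 4 in wider solitary peaks (quartiles 2.39 and 7). A mock background cannot fall under 1.76 fragments, the genome-wide mock level. ChIP counts of 8 to 13 fragments were found at 294 members (66.1%) and at 523 wider solitary peaks (26.1%). The whole list had 30.2%. At the members' median of 12 fragments the exact 95% Poisson interval runs from 6.20 to 21, so most members cannot be ranked among themselves by count. Width, fold, p and fragment numbers all come from the same ChIP and mock libraries. Differences between the sets are therefore given as a description, without a test.

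**Figure D1:**
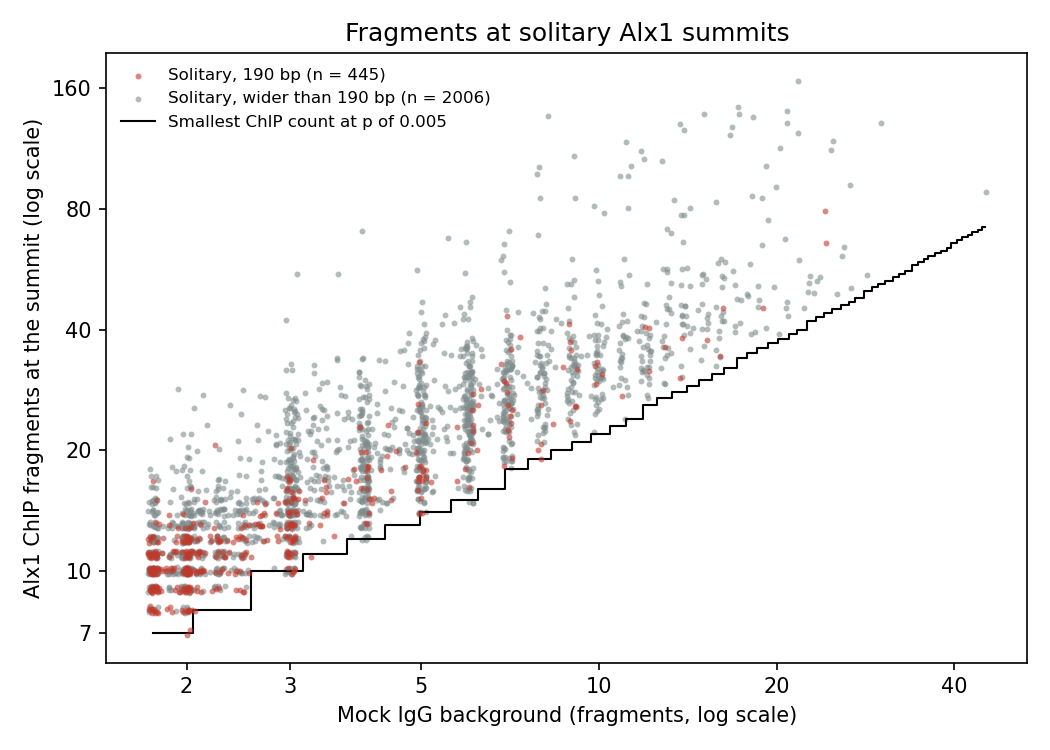
Alx1 ChIP fragments at each solitary summit (y axis, log scale) against the mock IgG background there in fragments (x axis, log scale), for 445 peaks of 190 bp and 2006 wider peaks; each point is a peak, moved by up to 2% to separate ties, and the line is the smallest ChIP count that gives a p of at most 0.005. Members crowd at the lower left, with medians of 12 ChIP and 2.28 mock fragments, and few reach 30 ChIP fragments.

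A step in fragment numbers lay between 190 bp and the widths just above it. Members had a median of 12 ChIP fragments (order-statistic 95% interval 11 to 12), whereas the 323 solitary peaks of 191 to 200 bp had a median of 18 (interval 17 to 20). Median mock backgrounds were 2.28 fragments in members (interval 2.09 to 2.49) and 4 in the 191 to 200 bp peaks (interval 3.71 to 4.94). Solitary peaks of 201 to 220 bp had a median of 17 ChIP fragments and those of 221 to 250 bp 17.5, close to the 18 of the 191 to 200 bp peaks. The median was 20 at 251 to 300 bp and 23 at 301 to 400 bp, and rose to 30 over 400 bp. Median deposited fold was 3.25 in members and 3.25 in the 191 to 200 bp peaks. This equality depended on the pseudocount of 1 that the peak caller adds to both libraries: without it the ratios of scaled ChIP to mock had medians of 4.19 in members (interval 4.04 to 4.38) and 3.94 in the 191 to 200 bp peaks (interval 3.72 to 4.10). High folds were less frequent in members, where 31 peaks (6.97%, interval 4.95% to 9.72%) had a fold of at least 4, against 50 of the 191 to 200 bp peaks (15.5%, interval 11.9% to 19.8%). The whole list had 24.3%.

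**Figure D2:**
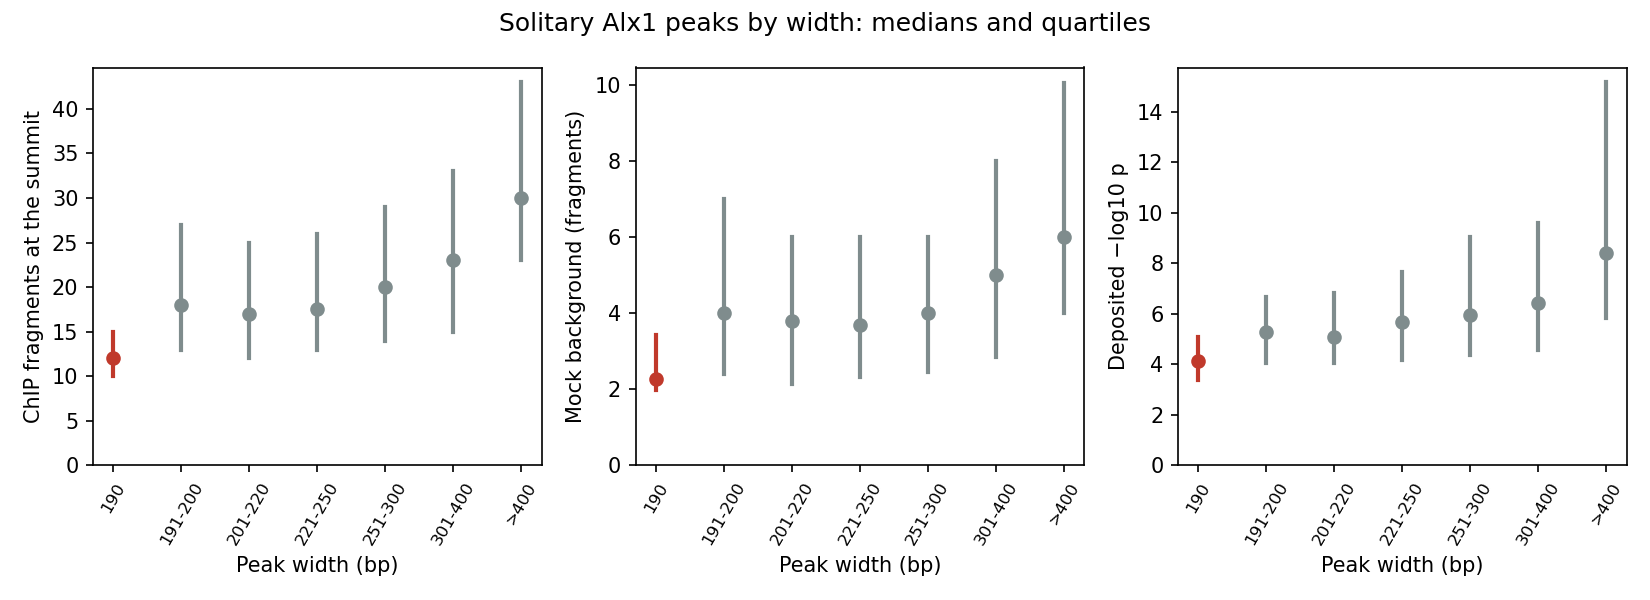
Medians (points) and quartiles (bars) of ChIP fragments, mock background in fragments and deposited −log10 p for solitary peaks in 7 width classes from 190 bp to over 400 bp. The class of 190 bp has medians of 12 ChIP and 2.28 mock fragments and a −log10 p of 4.15, under those of every other class.

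Fold enrichment ran from 1.81 to 5.91 in members, against 1.6 to 12.9 in wider solitary peaks. The deposited fold, which the peak caller gives as scaled ChIP plus 1 over mock plus 1, had a median of 3.25 in members, with quartiles of 2.88 and 3.54, against 3.40 in wider solitary peaks, with quartiles of 2.90 and 4.05. A fold of at least 5 was reached by 4 of 445 members (0.899%), where the whole list had 8.5%, and by 185 of 2006 wider solitary peaks (9.22%). Folds of 3 to under 4 were found at 264 members (59.3%) and at 886 wider solitary peaks (44.2%). A fold under 2 was listed for 3 members (0.674%) and 30 wider solitary peaks (1.5%). In the whole list 45.6% of peaks had a fold of 3 to under 4 and 1.34% a fold under 2. The order of the medians turned with the pseudocount. Without it, the ratio of scaled ChIP to mock had a median of 4.19 in members (interval 4.04 to 4.38) and 4.15 in wider solitary peaks (interval 4.09 to 4.23). These medians pool peaks of unlike mock background, and no difference could be read from them. At equal mock background members had lower median folds at most levels. At the genome-wide mock level they were 3.54 in members and 3.86 in wider solitary peaks. The medians were 3.25 and 3.55 at 2 mock fragments, 3.10 and 3.53 at 3, and 3.18 and 3.35 at 4. They were 2.65 and 3.31 at 5, and 2.86 and 3.08 at 7. At 10, 12 and 24 mock fragments, with 4, 3 and 2 members, they were not lower in members.

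The deposited p and q values were weaker in members. The median −log10 p was 4.15 in members, with quartiles of 3.38 and 5.08, against 5.68 in wider solitary peaks, with quartiles of 4.24 and 8.10. A −log10 p of at least 5 was reached by 119 members (26.7%, interval 22.8% to 31.04%), where the whole list had 57.5%, and by 1237 wider solitary peaks (61.7%, interval 59.5% to 63.8%). A q of at most 0.05 was held by 161 members (36.2%, interval 31.9% to 40.7%), where the whole list had 64.8%, and by 1375 wider solitary peaks (68.5%, interval 66.5% to 70.5%). At a q of at most 0.01 the numbers were 75 members (16.9%), where the whole list had 48.1%, and 1044 wider solitary peaks (52.04%). The −log10 q was listed as 0 for 12 members (2.70%), where the whole list had 1.14%, and for 18 wider solitary peaks (0.897%). Members made up 284 of the 1022 peaks in the list with a q above 0.05 (27.8%) and 161 of the 1884 with a q of at most 0.05 (8.55%). Of all 2906 peaks in the list, 445 were members. None of the 445 was among the first 100 peaks of the list by fold or by p, and the best placed stood at rank 115 by fold and rank 135 by p. By ChIP fragments 2 members were among the first 100, the better at rank 46.

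**Figure D3:**
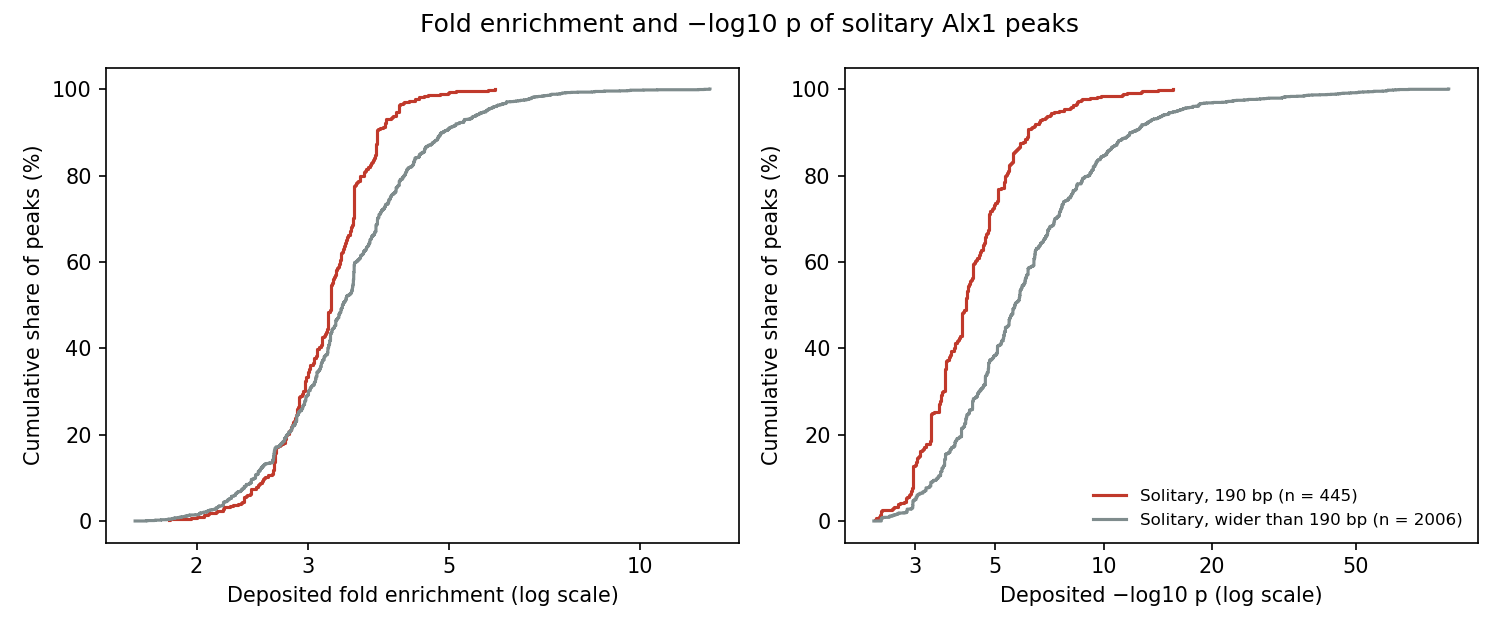
Cumulative share of solitary peaks (y axis, %) by deposited fold enrichment (left, log scale) and deposited −log10 p (right, log scale), for 445 peaks of 190 bp and 2006 wider ones. The fold curves run together up to a fold of about 3 and part above it, whereas the −log10 p curves are apart along most of the range, with medians of 4.15 in members and 5.68 in wider peaks.

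Many members exceeded the calling threshold by only a few fragments. For each peak the smallest ChIP count that gives a p of at most 0.005 at its own mock background was computed, and the margin is the number of fragments above it. The median margin was 3 fragments in members, with quartiles of 2 and 5, against 6 in wider solitary peaks, with quartiles of 4 and 12. No fragment could be lost at 13 members (2.92%, interval 1.72% to 4.93%) and at 29 wider solitary peaks (1.45%, interval 1.01% to 2.07%). A margin of at most 3 fragments was found at 241 members (54.2%, interval 49.5% to 58.7%) and at 462 wider solitary peaks (23.03%, interval 21.2% to 24.9%). Margins of 10 or more occurred at 30 members (6.74%) and at 669 wider solitary peaks (33.4%). In the whole list 1.65% of peaks could lose no fragment, 26.7% had a margin of at most 3 and 30.6% a margin of 10 or more. The margin concerns the summit alone, and the deposited list holds only regions at least 190 bp wide.

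**Figure D4:**
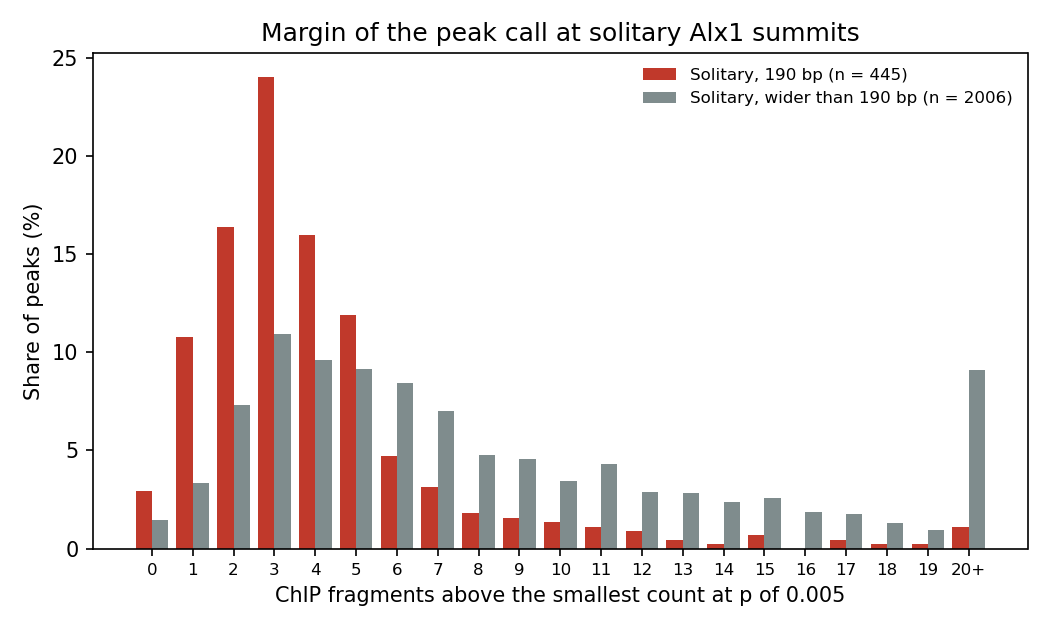
Share of solitary peaks (y axis, %) by the number of ChIP fragments above the smallest count that gives a p of at most 0.005 at the peak's own mock background (x axis; the last bar pools 20 and over), for 445 peaks of 190 bp and 2006 wider peaks. Members are most frequent at a margin of 3 fragments, their median, while 9.07% of wider peaks lie at 20 or more against 1.12% of members.

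The lower ChIP counts of members went with lower mock backgrounds, which also lower the count a call requires. Comparing peaks of equal mock background left a smaller difference. At the genome-wide mock level, 76 members had a median of 10 ChIP fragments, with a range of 8 to 17, and 124 wider solitary peaks a median of 11, with a range of 8 to 18. At a mock background of 2 fragments, 63 members had a median of 10 and 151 wider solitary peaks a median of 11. At 3 fragments the medians were 13 in 41 members and 15 in 164 wider solitary peaks, and at 5 fragments 17 in 16 members and 21.5 in 132 wider solitary peaks. Over the 9 mock levels with at least 10 peaks on both sides, which cover 262 members, members were lower at 9. The difference of medians (members minus wider solitary peaks) ran from -4.5 to -0.5 fragments and averaged -1.56 when weighted by members, against -7 for all peaks together. The share with a q of at most 0.05 was lower in members at each of the mock levels below, by an uneven amount. It was 34.2% in members and 58.1% in wider solitary peaks at the genome-wide level, 25.4% and 46.4% at 2 mock fragments, and 34.1% and 64.6% at 3. At 5 mock fragments it was 25% in members and 70.5% in wider solitary peaks, but at 4 it was 69.2% and 72.1%, and at 7 it was 69.2% and 79.2%, with 13 members at each of these last levels. At 10, 12 and 13 mock fragments, with 4, 3 and 1 members, it was higher in members. At 24 mock fragments it was 100% in both sets.

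The mock level that served as background also came from different windows. MACS2, the peak caller, uses whichever mock level is highest among those on the summit base, in windows of 1 kb and 10 kb around it, and genome-wide. Mock fragments at the summit set the background of 180 members (40.4%, interval 36.0% to 45.1%) and of 1173 wider solitary peaks (58.5%, interval 56.3% to 60.6%). The genome-wide level set it at 76 members (17.1%, interval 13.9% to 20.9%) and at 124 wider solitary peaks (6.18%, interval 5.21% to 7.32%). The 10 kb average alone fitted 93 members (20.9%) and 214 wider solitary peaks (10.7%). Steps of the 1 kb average, each of which is also a step of the 10 kb average, fitted 96 members (21.6%) and 495 wider solitary peaks (24.7%). Members with a mock background of 8 or more fragments numbered 31 (6.97%), against 383 wider solitary peaks (19.1%).

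Counting error in the mock library was then included in the ratio of scaled ChIP to mock. The exact interval of the ratio lay above 1 at 372 of 445 members (83.6%), where the whole list had 90.3%, and at 1827 of 2006 wider solitary peaks (91.1%). All 73 members whose interval reached 1 or less had a background set at the summit itself, where 107 of 180 members (59.4%) and 994 of 1173 wider solitary peaks (84.7%) lay above 1. In the whole list 1350 of the 1631 peaks with a background set at the summit lay above 1. The median mock background among such peaks was 3 fragments in members and 6 in wider solitary peaks. These shares therefore do not compare peaks of equal mock background. A background from a 1 kb or 10 kb window rests on more mock fragments, and the genome-wide level was taken without error. Peaks there had already passed a p of at most 0.005 on such a background. Every member and every wider solitary peak there lay above 1. The totals of 83.6%, 90.3% and 91.1% therefore depend on how often the background was set at the summit and on the share above 1 there. Members had such a background less often than wider solitary peaks (40.4% against 58.5%), but a lower share of them lay above 1 there.

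The strongest member by fold lay on Scaffold2135 at 68259 to 68448 and was the only peak on its scaffold. Its fold was 5.91 and its −log10 p 11.2, from 21 ChIP fragments (Poisson interval 13 to 32.1) on a mock background of 2.28, and the ratio was 8.07 (interval 3.79 to 18.0). Scaffold1070 at 177834 to 178023 followed with a fold of 5.76, from 17 ChIP fragments (interval 9.90 to 27.2) at the genome-wide mock level. This summit had the highest ratio of any member, 8.48 (interval 4.94 to 13.6, without counting error of the mock library). The intervals of both sites overlap, so this depth does not give their order.

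The only other members with a fold of at least 5 were Scaffold2663 at 53657 to 53846, with a fold of 5.13 from 15 ChIP fragments at the genome-wide mock level, and Scaffold749 at 383975 to 384164, with a fold of 5.01 from 16 ChIP fragments on 2 mock fragments. On Scaffold3760, at 12173 to 12362, a fold of 4.98 rested on 33 ChIP fragments (interval 22.7 to 46.3) against 5 mock fragments. The sixth by fold, on Scaffold5 at 1340784 to 1340973, had the highest −log10 p of any member, 15.6. It carried 43 ChIP fragments (interval 31.1 to 57.9) against 7 mock fragments, and its fold was 4.83. These last 2 sites differ from the 4 above them in having more fragments in both libraries.

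The remaining members among the first 10 had folds of 4.49 to 4.63. They lay on Scaffold146 at 154212 to 154401, with 20 ChIP fragments, on Scaffold1033 at 237051 to 237240, with 14, on Scaffold1647 at 73294 to 73483, with 15, and on Scaffold879 at 25587 to 25776, with 13. Their mock backgrounds were 3, 1.9, 2.15 and 1.76 fragments in the same order. A ranking of members by p shared 4 of its first 10 places with the ranking by fold.

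A few members combined many ChIP fragments with many mock fragments. The most ChIP fragments, 80 (interval 63.4 to 99.6), were found on Scaffold292 at 611938 to 612127, against 24 mock fragments, with a fold of 2.84 and a −log10 p of 14.2. Scaffold77 at 973790 to 973979 had 66 ChIP fragments (interval 51.04 to 84.0), also against 24 mock fragments, and a fold of 2.35. These 2 sites had the highest mock backgrounds of the set and were the only members with 50 or more ChIP fragments. Scaffold1181 at 316429 to 316618 had 46 ChIP fragments against 16 mock fragments, with a fold of 2.43. On Scaffold938 at 54005 to 54194, 45 ChIP fragments stood against a mock background of 19.2, with a fold of 2.0. All 4 had folds under the members' median of 3.25.

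The weakest members rested on very few fragments or on a small excess over the mock library. The fewest ChIP fragments, 7 (interval 2.81 to 14.4), were found on Scaffold113 at 192545 to 192734 and on Scaffold954 at 104017 to 104206, each against 2 mock fragments. Both had a fold of 2.38, and their ratio of 3.07 had an interval of 0.584 to 30.2. A further 22 members had 8 ChIP fragments, with folds of 2.59 to 2.90, and their counts do not order them. Of these, 10 stood at the genome-wide mock level with a fold of 2.90, among them Scaffold1314 at 244637 to 244826. The lowest folds were 1.81 on Scaffold405 at 584173 to 584362, 1.82 on Scaffold1063 at 316933 to 317122 and 1.96 on Scaffold825 at 119932 to 120121. These 3 sites had 34, 30 and 19 ChIP fragments against 16, 14 and 8 mock fragments. Their ratio intervals began at 1.0, 0.965 and 0.870.

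Many members had identical values, because few fragments allow few combinations. The 445 members held 225 distinct pairs of ChIP count and mock background, and the 10 commonest pairs covered 132 members (29.7%). The commonest, 10 ChIP fragments at the genome-wide mock level, occurred at 23 members, each with a fold of 3.54 and a −log10 p of 4.04. The next, 10 ChIP fragments against 2 mock fragments, occurred at 22 members with a fold of 3.25 and a −log10 p of 3.62. An order by fold among such members is therefore an order of small whole numbers.

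Relative to the width of the peak, summits of members were spread more widely than those of wider peaks. The median position was 47.9% of the width from the start in members, with quartiles of 27.9% and 64.2%, and 49.0% in wider solitary peaks, with quartiles of 35.9% and 62.0%. In bp from the start the quartiles were 53 and 122 in members and 86 and 158 in wider solitary peaks, so the spread in bp was no wider in members. The summit lay between 25% and 75% of the width in 299 members (67.2%, interval 62.7% to 71.4%) and in 1603 wider solitary peaks (79.9%, interval 78.1% to 81.6%). The peaks of 191 to 200 bp were like members in this respect, with 210 of 323 (65.02%, interval 59.7% to 70.01%), and no step at 190 bp was seen in this share. Summits within 20 bp of an end were found at 27 members (6.07%, interval 4.2% to 8.68%), among them Scaffold1063 and Scaffold825 with the low folds given above. They were found at 50 wider solitary peaks (2.49%, interval 1.90% to 3.27%) and, within that set, at 19 of the 323 peaks of 191 to 200 bp (5.88%, interval 3.80% to 9.004%).

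**Figure D5:**
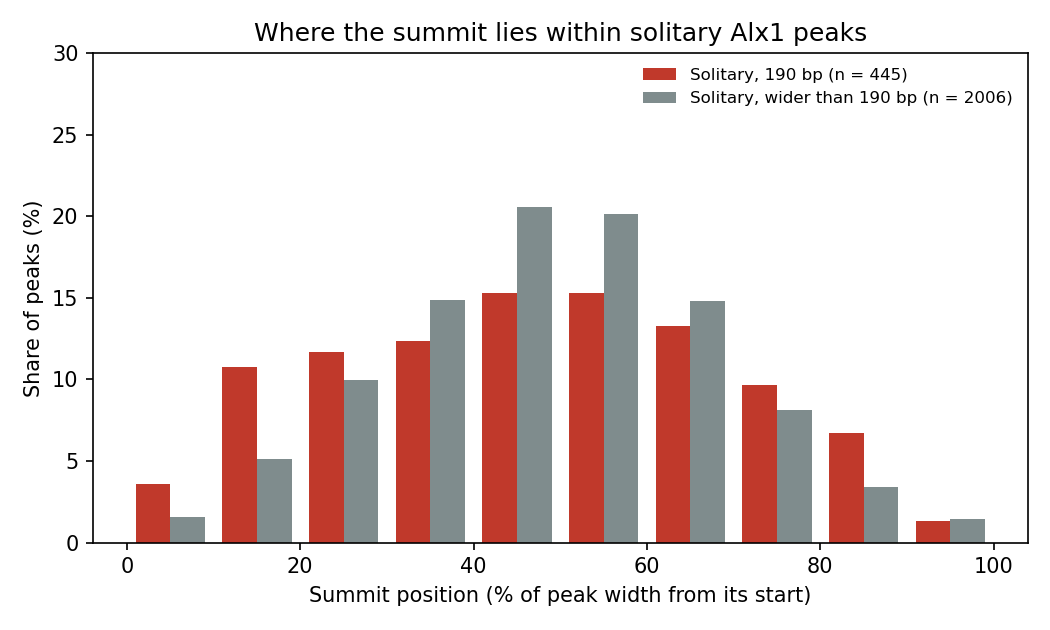
Share of solitary peaks (y axis, %) by the position of the summit, in % of the peak's width from its start (x axis, steps of 10%), for 445 peaks of 190 bp and 2006 wider peaks. Positions from 40% to 60% hold 15.3% of members in each step, against 20.5% and 20.1% of wider peaks.

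Members were scattered over 387 scaffolds. On 340 of these there was 1 member, on 37 there were 2, on 9 there were 3 and on 1, Scaffold388, there were 4. The members on Scaffold388 began at 281852, 667928, 722523 and 780508 and had folds of 2.72, 2.40, 2.65 and 3.25. A member was the only peak on its scaffold in 143 cases (32.1%, interval 28.0% to 36.6%), against 493 wider solitary peaks (24.6%, interval 22.7% to 26.5%). For the 302 members with another peak on the scaffold, the nearest summit lay at a median of 64.9 kb, with quartiles of 28.1 and 137 kb. For the 1513 such wider solitary peaks the median was 53.8 kb, with quartiles of 18.2 and 139 kb, and the order-statistic intervals of both medians overlap, from 53.8 to 79.5 kb and from 49.2 to 60.9 kb. Scaffold lengths were not used here, and short scaffolds leave less room for a neighbour.

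The 52 narrowest peaks with a neighbour within 5 kb were not as low as the solitary ones. Members had a median of 12 ChIP fragments (interval 11 to 12), and these 52 had 16 (interval 14 to 20). Median mock backgrounds were 2.28 fragments in members (interval 2.09 to 2.49) and 3.61 in the 52 (interval 2.85 to 4). Their folds were alike, with medians of 3.25 in members and 3.31 in the 52. A q of at most 0.05 was held by 161 of 445 members (36.2%) and by 28 of the 52 (53.8%, interval 40.5% to 66.7%). In the whole list 62.7% of the 2451 solitary peaks held such a q, against 64.8% of all 2906 peaks. The direction was the same, but all 2906 include the solitary peaks, and these include the members. The sizes of the gaps cannot be compared, and whether the gap is particular to peaks of 190 bp was not tested. Both sets were chosen by the rule, and no test was made of these differences.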

How the data were processed

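The libraries were pooled over cultures before sequencing, per the labels, and peaks were called on the Alx1 ChIP library with the mock library as control. Trimmomatic, Bowtie2, SAMtools and MACS2 are named in the submitters' processing notes; no version, setting or genome build is named there. The threshold p of 0.005 was read from the name of the list, whose largest p is 0.00498. The deposited values of each peak are the authors': a fold (the ratio of ChIP over local background on the summit base), the −log10 of p and of q, and a whole-number score that repeats the −log10 p and was left aside. They served to describe and rank peaks within the list. Positions count from 1 on the authors' scaffolds.

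Fragment numbers were solved with the formulas of MACS2, which the labels do not state: fold is scaled ChIP plus 1 over mock plus 1, and p is the upper Poisson tail. The scale on the ChIP library, fitted on 300 peaks, was 0.876. All 2906 peaks were solved within 3.72e-05 in −log10 p, the next-best count missed by at least 0.000231, and every background matched a mock window within 0.0003 fragments. The solver was tested on simulated data. The depth of the libraries is unknown, so precision is given per summit. Ratios at the genome-wide mock level have the Poisson interval of the ChIP count over a fixed mock level. Other intervals are exact Poisson for counts, Clopper-Pearson for ratios, Wilson for shares and order-statistic for medians, all at 95%. Intervals of counts and ratios cover the counting error of fragments only. Intervals of shares and medians take peaks as independent draws and hold neither that error nor a spread between libraries. How duplicate reads were treated is unknown. The summit is the point of highest recovery, which tends to raise its count. No p-value was computed, since each antibody had 1 library. Python 3.11.15, NumPy 2.4.6, SciPy 1.17.1 and pandas 2.3.3 were used. The width rule, the lists compared and the named sites (the 10 highest and 3 lowest folds, the 3 most and 3 fewest ChIP fragments, the 3 highest mock values and groups of 5 or fewer, with ties broken by higher −log10 p, then scaffold name and position) were chosen with earlier results of these data known. A gene table of another assembly, Spur_5.0, was not used.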

Additional observations from a re-analysis of the deposited data

How the results depend on the processing

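Of 120 recomputed values, 89 stayed within the interval of the reported one (counts within 1.5 times), 30 moved and 1 turned its direction. The difference in median fold (members minus wider solitary peaks), -0.14, became 0.038 with the ratio without the pseudocount, whose medians were 4.19 in members and 4.15 in wider solitary peaks, and -0.051 when the list was limited to q values up to 0.05. The difference in median ChIP fragments, -7, became -1.56 at equal mock background. Keeping only peaks with a q of at most 0.05 left 165 members, because some gain solitary status as neighbours drop out. Their medians were a fold of 3.73, 15 ChIP and 3 mock fragments, against 3.78, 23 and 4.56 in wider solitary peaks. With a −log10 p of at least 3, median folds were 3.30 in members and 3.49 in wider solitary peaks, a q of at most 0.05 was held by 41.5% of members and 72.2% of wider solitary peaks, and, as under the q limit, the share that could lose no fragment was 0% in both sets by construction. Widths up to 5 bp above the narrowest gave medians of 13 ChIP and 2.66 mock fragments and a q of at most 0.05 in 43.1%. Widths up to 200 bp gave 768 members, medians of 13 and 3 fragments and 48.3%. The share of narrowest peaks that were solitary was 93.0% at 2 kb, 84.7% at 10 kb and 79.3% at 20 kb. Alternatives on motifs and genes were not run, for want of a genome in the files' build. No paired analysis was possible because the ChIP and mock groups hold 1 library each, which also prevented leaving a library out. With a median of 12 ChIP fragments, single members cannot be ranked firmly.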

Other observations

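The summit nearest to a member, always more than 5 kb away, belonged to another peak of 190 bp in 33 of 302 cases (10.9%, Wilson interval 7.89% to 14.9%). For wider solitary peaks it did so in 252 of 1513 cases (16.7%, interval 14.9% to 18.6%). The whole list had 17.1% of such peaks, and no test was made. Within the first 1000 bp of a scaffold 1 of 445 members began (0.225%), on Scaffold1069 at 242 to 431, against 19 of 2006 wider solitary peaks (0.947%). On 148 scaffolds every peak called was a member.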
